A study of Mus musculus with 13 samples.

Results

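Ribosomal protein genes are expressed in every growing cell; as a reference set of active promoters they were read in 7 peak lists of liver ChIP-seq. The members were all RefSeq protein-coding genes whose symbol is Rpl or Rps followed by a number and, in some, a short suffix, which gave 81 genes of 21887 on the chromosomes used, 50 of the large subunit (Rpl) and 31 of the small subunit (Rps). No binding value entered this choice. A gene was counted as having a peak where the centre of a deposited peak lay in the gene body or within 1000 bp of it.

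The study mapped the glucocorticoid receptor (GR) and the corepressor NCOR1 in livers of male mice labelled GFP (titled control) or CRE (titled dKO, a knockout that includes NCOR1). The agent was dexamethasone, a synthetic glucocorticoid, given into the peritoneum at 1 mg/kg, or its vehicle; the injection was at zeitgeber time 8 and the liver was collected after 2 h. The labels do not state the age of the mice, how Cre was delivered, which liver cells carried it or which exons were deleted. GR was mapped in both genotypes under both treatments, with 2 libraries in each of the 4 groups. For NCOR1 there were 2 libraries of dexamethasone-treated control liver and 1 library each of vehicle-treated control and vehicle-treated dKO liver, and all lists were called against 1 input library, labelled GFP and vehicle. The NCOR1 antibody was raised in rabbit against the C-terminal part of the protein. Each list pools its group, so the spread between animals is not known and no difference between lists was tested. The lists rested on 17.5 to 36.9 M tags and held 17282 to 40853 peaks. The vehicle NCOR1 lists were close in depth, at 17.8 M tags in control and 17.5 M in dKO, with 39458 and 17282 peaks.

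Ribosomal proteins build the cytosolic ribosome together with ribosomal RNA, and their genes are short, highly transcribed and share compact promoters without a common tissue-specific factor. NCOR1 is a scaffold that carries the histone deacetylase HDAC3 to nuclear receptors, and its known liver sites are mostly at enhancers of metabolic genes. In a liver labelled as a knockout of the antibody target, peaks still called at such promoters give the residual signal of the antibody there. Signal from cells that keep the protein or a part of it, and signal that does not need the protein, cannot be told apart in a peak list.

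The promoters below are those of the 6 ribosomal protein genes with the strongest peaks in the dKO NCOR1 list that have an entry in the RefSeq promoter table (GRCm38.p6), followed by 2 genes without a peak in any list. Each runs 5′ to 3′ on the strand of the gene from 150 bases before the start through the first 20 transcribed bases. In the first 6 the dKO peak is centred within 58 bp of the start, and Rpl10l and Rpl13 are shown as promoters without a called peak. The dKO peak of Rps7 is centred 43 bp downstream of the start, just past the printed end. Capitals mark an ETS site (CCGGAAG on either strand) or the core of the CGCG element (TCGCGA), a palindrome known from promoters of housekeeping genes.
Rps19, chr7:24884442-24884611, plus strand: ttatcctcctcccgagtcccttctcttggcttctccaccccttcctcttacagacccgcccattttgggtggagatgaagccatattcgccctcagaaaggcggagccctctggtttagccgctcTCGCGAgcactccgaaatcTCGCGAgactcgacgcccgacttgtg
Rps3a1, chr3:86142649-86142818, minus strand: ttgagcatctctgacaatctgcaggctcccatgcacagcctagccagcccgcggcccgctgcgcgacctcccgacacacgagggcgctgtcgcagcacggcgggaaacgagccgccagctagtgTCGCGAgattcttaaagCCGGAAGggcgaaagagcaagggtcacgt
Rpl26, chr11:68901416-68901585, plus strand: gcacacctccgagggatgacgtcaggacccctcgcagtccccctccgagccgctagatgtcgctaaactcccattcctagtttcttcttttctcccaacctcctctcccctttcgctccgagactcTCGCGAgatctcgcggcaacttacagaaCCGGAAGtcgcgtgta
Rpl27, chr11:101442095-101442264, plus strand: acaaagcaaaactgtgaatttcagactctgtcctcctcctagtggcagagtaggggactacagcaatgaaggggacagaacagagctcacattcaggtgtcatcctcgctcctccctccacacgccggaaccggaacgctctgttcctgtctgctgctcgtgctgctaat
Rpl7a, chr2:26910657-26910826, plus strand: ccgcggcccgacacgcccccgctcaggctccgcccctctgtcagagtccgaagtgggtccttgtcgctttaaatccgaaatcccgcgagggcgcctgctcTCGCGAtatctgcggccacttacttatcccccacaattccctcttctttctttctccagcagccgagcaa
Rps7, chr12:28635934-28636103, minus strand: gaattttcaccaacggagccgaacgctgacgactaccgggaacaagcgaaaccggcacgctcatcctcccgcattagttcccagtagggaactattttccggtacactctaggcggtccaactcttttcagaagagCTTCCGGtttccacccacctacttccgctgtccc
Rpl10l, chr12:66284382-66284551, minus strand: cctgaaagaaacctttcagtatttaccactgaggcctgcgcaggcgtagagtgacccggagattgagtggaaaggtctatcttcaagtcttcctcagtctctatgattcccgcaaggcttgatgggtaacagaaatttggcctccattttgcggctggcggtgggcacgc
Rpl13, chr8:123102200-123102369, plus strand: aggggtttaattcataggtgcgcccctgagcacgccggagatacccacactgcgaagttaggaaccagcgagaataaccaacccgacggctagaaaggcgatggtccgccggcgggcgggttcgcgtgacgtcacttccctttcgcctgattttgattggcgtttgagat

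At the 4-fold calling limit, ribosomal protein genes kept nearly the same share with an NCOR1-antibody peak in dKO as in control liver. The share over all genes was lower in dKO. In control vehicle 58 of 81 (71.6%, exact Clopper-Pearson 95% interval 60.5 to 81.1) had a peak, against 48.5% of all protein-coding genes. In control dexamethasone the count was again 58 of 81, against 47.1% of all genes. In dKO vehicle 56 of 81 (69.1%, 57.9 to 78.9) had a peak, against 34.5% of all genes. These intervals cover counting error only. A level share was not particular to members, as translation factors had a peak at 27 of 35 genes (77.1%) in both vehicle lists. Ribosome biogenesis genes stood at 12 of 20 in control vehicle and 11 in dKO. The share was lower in dKO for mitochondrial ribosomal proteins (74.4% and 57.7%), proteasome subunits (72.5% and 52.5%) and complex I subunits (72.5% and 62.5%). Gene bodies of the members were short, with a median of 3164 bp against 17169 bp over all genes, and a shorter body leaves less room for a peak. Among the 4616 other protein-coding genes no longer than 4516 bp, which is the upper quartile of the members, 17.3% had a peak in control vehicle, 15.9% in control dexamethasone and 12.1% in dKO vehicle.

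**Figure D1:**
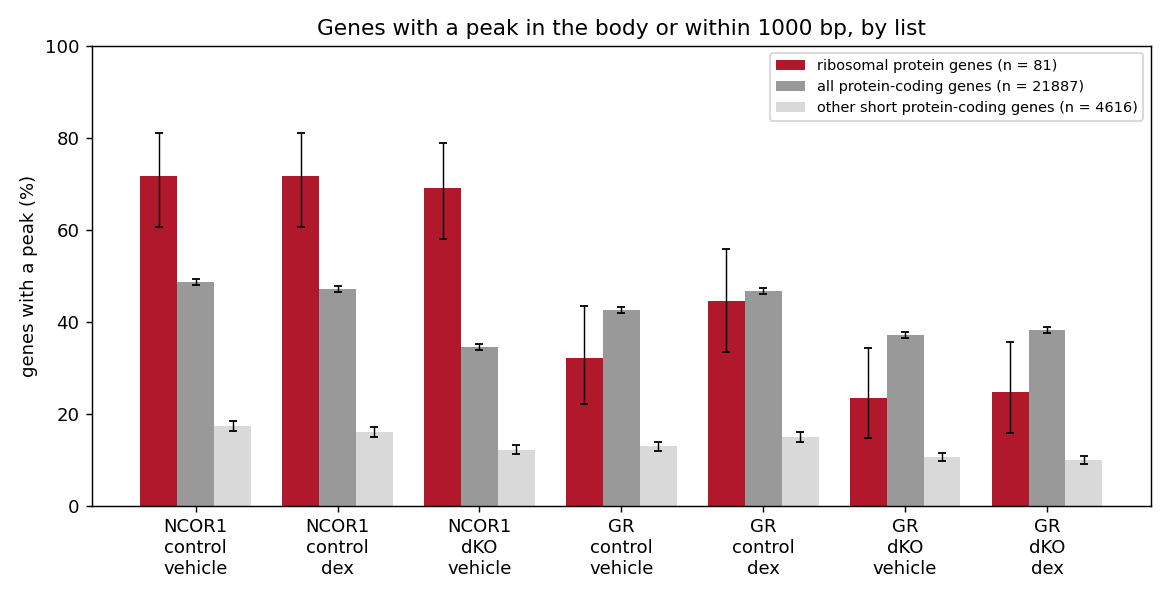
Bars give the percentage of genes with a peak (y axis) in each of the 7 lists (x axis; dex is dexamethasone) for 81 ribosomal protein genes, all 21887 protein-coding genes and 4616 other short genes, with exact 95% intervals for counting error. The ribosomal protein bar is at 71.6%, 71.6% and 69.1% in the NCOR1 lists, and lies below the bar of all genes in each GR list.

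These peaks were weak against the input, and the dKO count depends on them. Of the 57 ribosomal protein peaks in the dKO list 39 (68.4%) had less than 8-fold over input, against 45.4% of all its peaks. In control vehicle 33 of 67 (49.3%) did, against 28.7%. Under 5-fold, near the required 4-fold, were 15 of the 57 (26.3%) in dKO, against 13.8% of all its peaks. In control vehicle 11 of the 67 (16.4%) were, against 7.37%. Counting peaks of at least 8-fold alone, 18 of 81 members (22.2%) had one in dKO, close to the 19.5% of all genes and above the 6.09% of other short genes; in control vehicle the values were 38.3%, 36.8% and 11.5%. The input itself was higher at these peaks. The median was 3.6 input tags per dKO peak against 2.3 over the whole dKO list, and 3.2 against 2.3 in control vehicle. Peaks within 500 bp of any protein-coding start lay between, at 2.7 in dKO and 2.8 in control vehicle. Their median fold over input was 7.04 in dKO, against 5.84 at members and 8.75 over the list. In control vehicle it was 9.11, against 8.03 and 12.6. The part of the input in the calls was not tested.

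Member by member, the strongest dKO peak lay at Rps19, a small-subunit protein mutated in Diamond-Blackfan anaemia, with normalized tag counts (tags per 10 M tags, the authors' value) of 20.3 in NCOR1 control vehicle, 21.5 in control dexamethasone and 25.5 in dKO. Rps3a1, of the small subunit, had 30.1, 20.9 and 21.8 in the same order. Rpl7a had 16.3, 14.2 and 19.8, and its peaks also lay within 1000 bp of the gene Med22. The dKO value was the highest of the 3 at Rps19 and Rpl7a, and lay between the control values at Rps3a1. These members were picked for a high dKO count.

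Rpl26, which binds near the exit of the peptide tunnel, had 27, 19.1 and 19.8. Rpl27 had 18.8, 19.8 and 19.8, level across the lists. Rps7, which can bind the p53 regulator MDM2, had 25, 21.4 and 19.2; in control vehicle its highest peak lay 3612 bp downstream of the start and the peak at the start had 18.3. At the start of Rps7 the dKO peak was thus slightly the higher. Rpl21 had 18.6, 21.3 and 17.7, and Rps6, the small-subunit target of S6 kinase, had 17.4, 14.1 and 16.3. The 17.4 at Rps6 lay 3888 bp downstream of its start, outside the gene, and the control vehicle peak that the dKO peak overlaps had 14.1 (log2 ratio of dKO over control 0.21). Rpl12, a protein of the stalk base, had 17.5 in dKO (4.2-fold over input, also near Lrsam1) and no peak in either control list. Rpl15 had 37.7, 20.9 and 16.3, but the dKO peak was centred 40 bp downstream of the start and the control peaks 294 and 320 bp upstream of it, near the neighbouring gene Nkiras1, so these are different peaks. Of the 10 genes with the strongest dKO peaks, 1 had no control peak and 1 a displaced peak.

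In the control lists, the strongest remaining members were Rpl3, which shapes the peptidyl transferase centre, with 25.6 in control vehicle, 16.8 in control dexamethasone and 14.9 in dKO, Rpl29 with 16.0, 25.1 and 13.5, and Rps28 with 18.3, 23.3 and 14.6. All 3 had their lowest value in dKO, but they were picked for a high control count, which favours that order. Rpl29 and Rps28, picked for their dexamethasone counts, were higher under dexamethasone. Rpl3 and Rpl15, picked for their vehicle counts, were higher under vehicle, so this order follows in part from the choice. Over the 53 overlapping control pairs at members the median log2 ratio of dexamethasone over vehicle was -0.03.

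**Figure D2:**
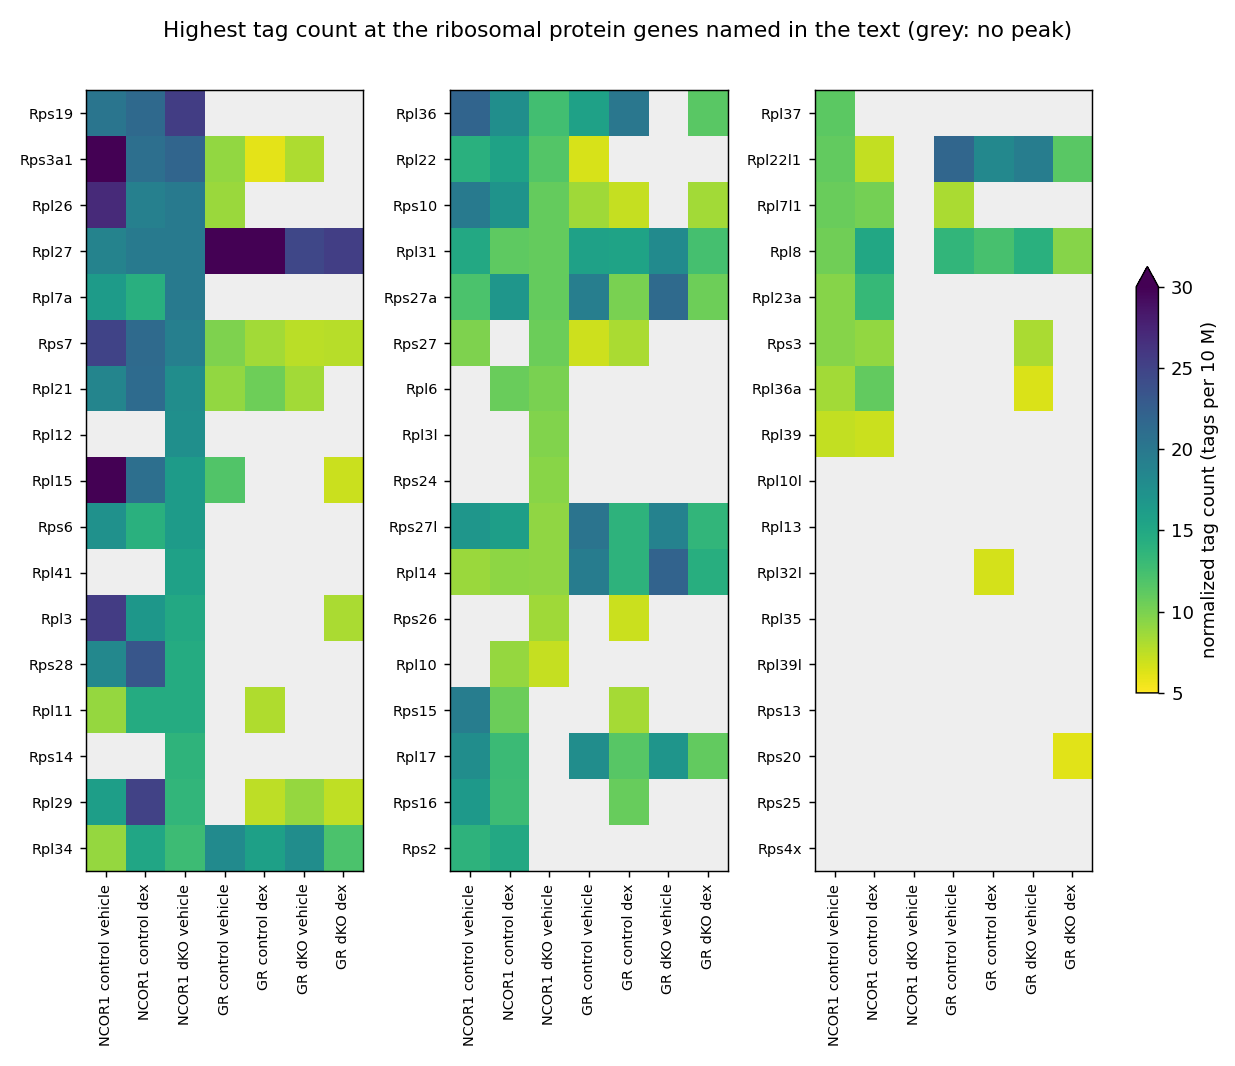
Each row is 1 of the 51 ribosomal protein genes named in the text and each column 1 of the 7 lists; colour gives the highest normalized tag count (tags per 10 M) at the gene, with counts over 30 drawn in the darkest colour and grey for no peak; dex is dexamethasone. Genes are ordered by their dKO NCOR1 count, from Rps19 (25.5) to Rpl10 (7.16), followed by 21 genes without a dKO NCOR1 peak.

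Across all members, the tag counts in the dKO NCOR1 list ranged from 7.16 to 25.5 with a median of 13.2, and in control vehicle from 7.31 to 37.7 with a median of 14.6. Over all peaks the median was 10.0 in dKO and 15.5 in control vehicle. Ribosomal protein peaks stood at a median percentile of 73.5 (95% interval of the median 64.5 to 79.8) within the dKO list, 58.4 (52.7 to 65.0) within control dexamethasone and 47.1 (42.7 to 52.1) within control vehicle. Among the strongest 20% of its own list were 19 of 57 member peaks (33.3%) in dKO, 1 of 67 (1.49%) in control vehicle and 2 of 61 (3.28%) in control dexamethasone. These are ranks within lists of different lengths and show no change in the members' signal, whose medians were close while the median over all peaks was lower in dKO. With the control lists reduced to their strongest 17282 peaks and the dKO list left whole at that length, 19 of 81 members (23.5%) had a peak in control vehicle, 34 (42.0%) in control dexamethasone and 56 (69.1%) in dKO; all genes then stood at 24.4%, 24.9% and 34.5%. Members held 0.33% of the dKO peaks (0.25 to 0.427) and 0.17% of control vehicle peaks (0.132 to 0.216).

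**Figure D3:**
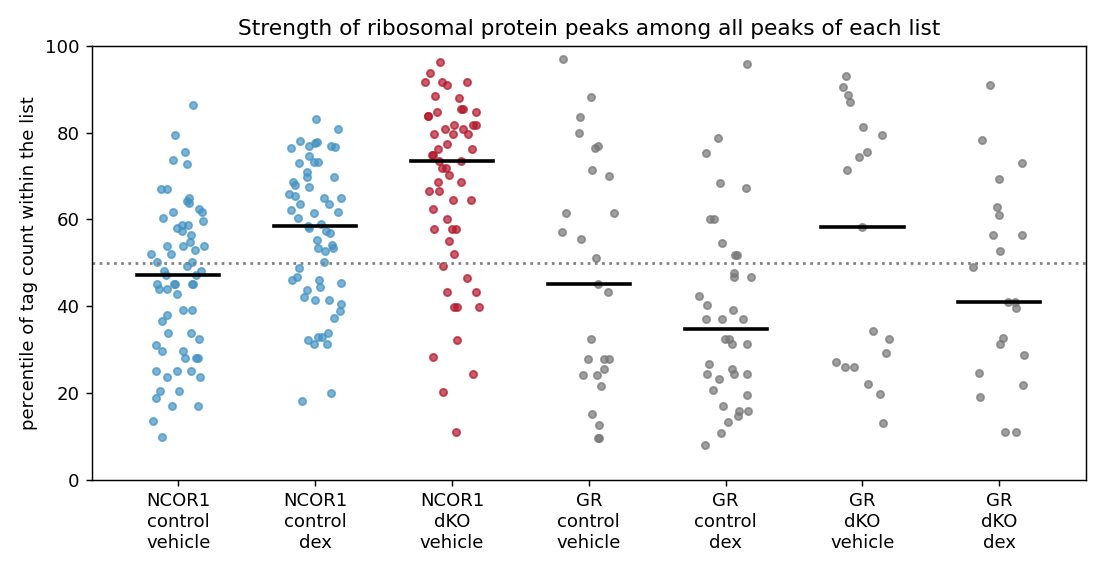
Points are ribosomal protein peaks, placed by the percentile of their tag count among all peaks of the same list (y axis) in each of the 7 lists (x axis; dex is dexamethasone); black lines are medians and the dotted line is the middle of the list. The median lies at 47.1 in NCOR1 control vehicle and at 73.5 in NCOR1 dKO vehicle, lists of 39458 and 17282 peaks.

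Of the 67 control vehicle NCOR1 peaks at ribosomal protein genes 42 (62.7%, 50.0 to 74.2) were overlapped by a dKO peak, against 20.5% of all control vehicle peaks. Of peaks within 500 bp of any protein-coding start 43.3% (41.9 to 44.6) were, and of peaks further away 17.1%. In the other direction, 42 of 57 dKO peaks at members (73.7%) overlapped a control vehicle peak, against 46.9% of the dKO list and 62.6% of its peaks near a start. By strength, in classes 2, 3 and 4 of 5 equal classes of control vehicle tag count, from weakest to strongest, 12 of 20 (36.1 to 80.9%), 18 of 28 (44.1 to 81.4%) and 9 of 13 (38.6 to 90.9%) member peaks were found in dKO, against 20.6%, 19.0% and 17.6% of all peaks and 41.9%, 46.4% and 48.8% of those near a start. These intervals lie above the shares of all peaks and hold the shares of peaks near a start. The weakest class held 5 member peaks, 3 of them found in dKO, and the strongest held 1, which was not. Against control dexamethasone, 39 of 61 member peaks (63.9%) were overlapped in dKO, against 22.4% of that list, and 39 of 57 dKO member peaks (68.4%) overlapped one of that list, against 48.8%. By gene, 46 of the 58 members with a control vehicle peak (79.3%, 66.6 to 88.8) also had a dKO peak, against 60.6% of all such genes. In reverse, 46 of the 56 members with a dKO peak (82.1%, 69.6 to 91.1) had a control vehicle peak, against 85.4%. These gene counts include members whose dKO peak lies at another site than the control peak, as at Rpl15.

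At the 42 overlapping pairs, the tag count was nearly level between genotypes. The median log2 ratio of dKO over control was -0.03 (95% interval of the median -0.25 to 0.07), with quartiles of -0.38 and 0.11, and 18 of 42 pairs were higher in dKO. Over all 8097 overlapping pairs the median was -0.39, and at pairs near a start -0.38. Only peaks that passed calling in both lists enter these ratios, at tag thresholds of 11 in control and 12 in dKO, so sites whose signal dropped below calling are not in them. The counts at members also kept their order: Pearson's r of the log2 counts was 0.66 and Spearman's rho 0.66 over the 42 pairs, against 0.15 and 0.12 over all pairs, as a description of 2 libraries that share an input and the promoters' base composition. The correlation was not computed for pairs near a start alone, so it is not shown to be particular to members. The largest ratios were at Rpl11, an MDM2-binding protein (9.0 in control, 14.6 in dKO, log2 0.70), and Rpl34 (9.0 and 12.9, 0.52). At the low end stood Rps27l, a p53-responsive paralogue of Rps27 (16.9 and 9.16, -0.88), Rps10 (19.7 and 10.9, -0.85) and Rpl3 (-0.78). The peak centres at Rps27l lay 194 bp apart, so those peaks of 200 bp barely overlapped.

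**Figure D4:**
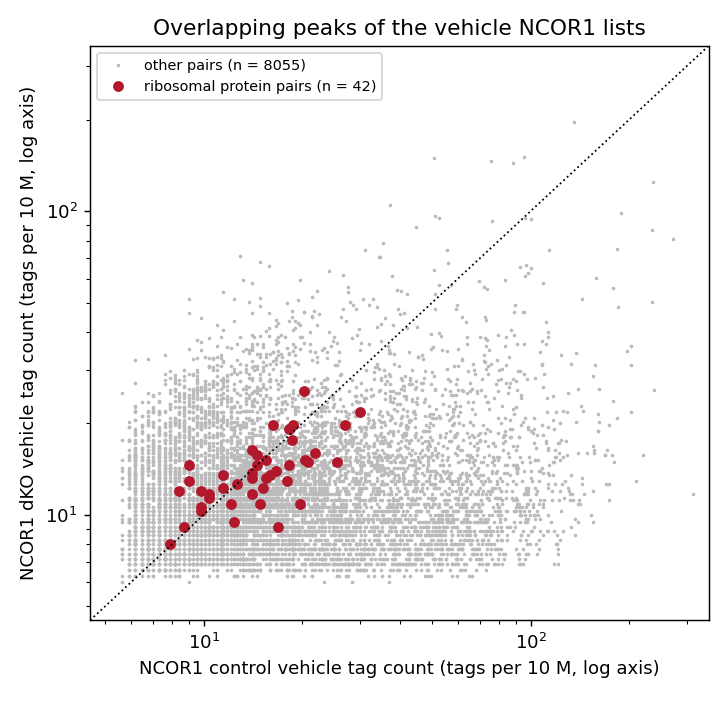
Each point is a control vehicle NCOR1 peak (x axis, tags per 10 M) and the dKO vehicle peak that overlaps it (y axis), both on log axes, with the 42 pairs at ribosomal protein genes in red and all other pairs in grey. The red points lie along the dotted line of equal counts, between 7.88 and 30.1 in control.

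Most NCOR1 peaks at members with a listed start were centred within 500 bp of it. These were 43 of 51 peaks (84.3%) in control vehicle, 42 of 45 (93.3%) in control dexamethasone and 40 of 44 (90.9%) in dKO. The promoter table gives a start for 62 of the 81 genes. Of these, 43 (69.4%) had a control vehicle NCOR1 peak within 500 bp of a start, 42 (67.7%) a control dexamethasone peak and 40 (64.5%) a dKO peak, against 30.2%, 26.5% and 21.8% of all protein-coding genes with a start. The median position of the peak centre was 6 bp upstream of the start in control vehicle (quartiles -57.5 and 65 bp), 13 bp upstream in control dexamethasone and 9.5 bp upstream in dKO (-49.8 and 50.8 bp). Centres of overlapping control and dKO peaks lay a median of 25 bp apart, against 37 bp over all pairs.

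**Figure D5:**
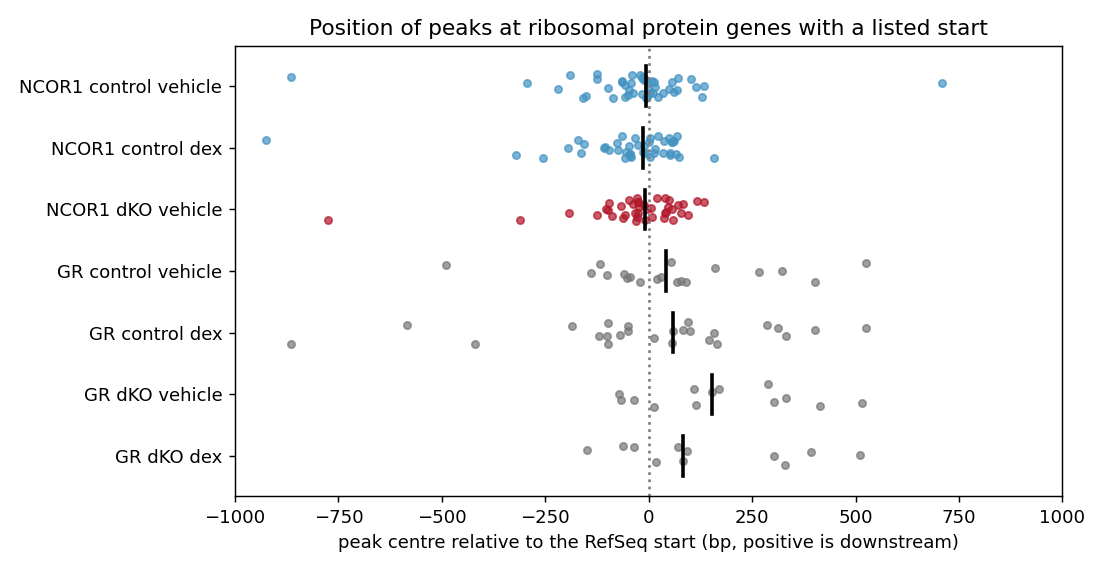
Points are peak centres relative to the RefSeq start (x axis in bp, positive is downstream) for ribosomal protein genes with a listed start, in each of the 7 lists (y axis; dex is dexamethasone); black bars are medians, which also count peaks further than 1000 bp away that are not drawn. The NCOR1 medians lie within 13 bp of the start and the GR medians 41 to 152 bp downstream.

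In the promoter window of 250 bases before to 50 after the start (1 promoter a gene, the most upstream), the ETS letters CCGGAAG were found on either strand in 23 of 62 members (37.1%), against 11.9% of all 17492 protein-coding promoters. The core TCGCGA, searched after the sequences above had been seen, was in 13 of 62 (21.0%) against 3.45%, and CTTTCC, from the oligopyrimidine start of these genes, in 28 (45.2%) against 25.8%. A C followed by 4 further pyrimidines within 5 bases of the start was present in 45.2% against 18.8%. The letters of the YY1 site, AAGATGG, were in 16.1% against 6.35%, and of the GC box, GGGCGG, in 58.1% against 46.3%. AGGTCA, bound by many nuclear receptors, was in 11.3% against 14.5%, the GR element arm AGAACA in 16.1% against 16.4%, and the full glucocorticoid response element in 0 of 62 against 0.434%. In members with and without a dKO peak, the ETS letters were in 17 of 43 and 6 of 19, TCGCGA in 10 of 43 and 3 of 19, the pyrimidine start in 23 of 43 and 5 of 19, AGAACA in 9 of 43 and 1 of 19, and the GC box in 23 of 43 and 13 of 19, with no test. The printed promoters that carry TCGCGA, at Rps19, Rps3a1, Rpl26 and Rpl7a, all belong to members with a dKO peak. As the search followed from them, the split of TCGCGA cannot be read as a difference. Its share in members against all promoters is likewise a description, since member promoters prompted the search. All letters were searched on both strands except the pyrimidine start, and a match describes letters, not a bound site. The median CpG count was 21 in members and 13 in all promoters, with a GC content of 56.8% and 56.3%.

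GR gave a different picture at the same genes, from libraries labelled without size selection, unlike the NCOR1 and input libraries. In control liver a GR peak was called at 26 of 81 members (32.1%, 22.2 to 43.4) under vehicle and 36 (44.4%, 33.4 to 55.9) under dexamethasone, against 42.5% and 46.8% of all protein-coding genes. In dKO liver the counts were 19 (23.5%, 14.8 to 34.2) and 20 (24.7%, 15.8 to 35.5), against 37% and 38.2%. Other short genes stood, in the same order, at 12.9%, 14.8%, 10.5% and 10.0%. Within 500 bp of a start, 27.4%, 33.9%, 19.4% and 16.1% of the 62 members had a GR peak in the same order, against 18.2%, 18.4%, 14.7% and 12.3% of all genes. With peaks of at least 8-fold over input the members' shares were 18.5%, 17.3%, 12.3% and 12.3%, against 32.5%, 36.2%, 28.2% and 28.5% of all genes. With equal list lengths the control dexamethasone count was 7 of 81 (8.64%), against 25% of all genes. The member peaks of the control dexamethasone list were weak, with a median percentile of 34.7.

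Rpl27 stood apart among the GR peaks, with tag counts of 44.8 (vehicle) and 53.1 (dexamethasone) in control liver and of 24.7 and 25.4 in dKO liver at the same site, 13 to 20 bp downstream of its start. Both control lists were above both dKO lists there. In this order Rpl36 had 15.7, 20.1, no peak and 11.4, and Rpl22l1, a paralogue of Rpl22, had 21.7, 18.3, 19.4 and 11.4. Rpl34 (18, 15.8, 17.7 and 12.1) and Rpl31 (15.7, 15.5, 18 and 12.4) carried their GR peak 393 to 413 bp and 511 to 526 bp downstream of the start, away from the NCOR1 peak. Rpl14 (19.5, 13.8, 22.0 and 14.3) had it 267 to 302 bp downstream.

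The share of member GR peaks that overlapped an NCOR1 peak was above that of the whole list, and the share of member NCOR1 peaks that overlapped a GR peak of the same group was below it, with no test of either. In dKO vehicle 7 of 57 NCOR1 peaks at members (12.3%, 5.08 to 23.7) overlapped a GR peak, against 23.1% of all peaks in that list, and 7 of 19 GR peaks at members (36.8%) overlapped an NCOR1 peak, against 17.1%. In control vehicle 17 of 27 member GR peaks (63.0%) overlapped an NCOR1 peak, against 54.3%, and these were 17 of 67 NCOR1 peaks (25.4%), against 41.3%. In control dexamethasone 23 of 38 GR peaks (60.5%) did, against 48.9%, or 23 of 61 NCOR1 peaks (37.7%), against 53%. Across genotypes, 13 of 27 member GR peaks of control vehicle (48.1%) and 18 of 38 of control dexamethasone (47.4%) overlapped a dKO NCOR1 peak, against 14.7% and 13.2% of those lists. Of the members 45 (55.6%) had a GR peak in any list, against 53% of all protein-coding genes, and 12 (14.8%) had one in all 4, against 30.4%. An NCOR1 peak in some list and no GR peak was found at 28 (34.6%), against 10.8%. The reverse held at Rpl32l and Rps20 alone (2.47%, against 6.92%).

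Within control liver, 53 of 67 vehicle NCOR1 peaks at members (79.1%, 67.4 to 88.1) were overlapped by a dexamethasone peak, against 67.2% of the list, and these were 53 of 61 dexamethasone peaks (86.9%), against 70.4%. At these pairs the median log2 ratio of dexamethasone over vehicle was -0.03, against -0.31 over all pairs. For GR, 21 of 38 dexamethasone peaks at members (55.3%) overlapped a vehicle peak, against 60.2%, and 21 of 27 vehicle peaks (77.8%) a dexamethasone peak, against 81.9%, with a median log2 ratio of vehicle over dexamethasone of 0.23, against -0.07. In dKO liver 13 of 21 GR dexamethasone peaks at members (61.9%) overlapped a vehicle peak, against 64.6%, and 13 of 19 vehicle peaks (68.4%) a dexamethasone peak, against 78.5%. Between genotypes, 14 of 27 GR control vehicle peaks (51.9%) overlapped a dKO vehicle peak, against 64.9%, and 14 of 19 in reverse (73.7%), against 83.4%. Under dexamethasone 16 of 38 control peaks (42.1%) overlapped a dKO peak, against 60.5%, and 16 of 21 in reverse (76.2%), against 87.1%. In each of these GR comparisons the members' share was below that of the whole list, on few peaks and with no test. The vehicle and dexamethasone lists of NCOR1 differ in the number of libraries and in depth.

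Some members had a peak in only one of the vehicle NCOR1 lists. A dKO peak without a control vehicle peak was found at 10 of 81 genes (12.3%), against 5.04% of all protein-coding genes, among them Rpl10, Rpl12, Rpl3l, Rpl41, Rpl6, Rps14, Rps24 and Rps26. Of the 10, 7 had no peak in control dexamethasone either (8.64% of members, against 3.07% of all genes), and Rpl10 and Rpl6 had one. Among the strongest were Rpl12, Rpl41 (15.7, 5.04-fold over input, near Zc3h10) and Rps14 (13.7, 4.4-fold). A control vehicle peak without a dKO peak was found at 12 (14.8%, against 19.1% of all genes): Rpl17, Rpl22l1, Rpl23a, Rpl36a, Rpl37, Rpl39, Rpl7l1, Rpl8, Rps15, Rps16, Rps2 and Rps3. Rps15 (19.4), Rpl17 (17.7, with 3 peaks) and Rps16 (16.6) were the strongest of them, and each of the 12 except Rpl37 also had a peak in control dexamethasone.

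Peaks in all 7 lists were found at 8 members (9.88%, against 15.4% of all genes), among them Rpl14, Rpl27, Rpl31, Rpl34, Rps27a, Rps27l and Rps7. No list had a peak at 8 others (9.88%, against 36.2% of all genes), among them Rpl10l, Rpl13, Rpl35, Rpl39l, Rps13, Rps25 and Rps4x. Rpl10l and Rpl39l are paralogues known from testis, whereas Rpl13, Rpl35, Rps13, Rps25 and Rps4x encode core subunits. Of the 8 paralogue symbols that end in l or l1, 3 had a peak in NCOR1 control vehicle and 2 in dKO (Rps27l and Rpl3l). The Rpl3l peak lay beyond the end of that gene, beside Msrb1. Without these symbols, 55 of 73 (75.3%) had a peak in control vehicle and 54 (74.0%) in dKO. By subunit, 36 of 50 Rpl and 22 of 31 Rps genes had a control vehicle peak, and 33 and 23 a dKO peak. Some peaks cannot be assigned to 1 gene: 14 of the 57 dKO and 12 of the 67 control vehicle peaks also lay in or within 1000 bp of another protein-coding gene, and without such peaks the member counts were 42 (51.9%) and 49 (60.5%). The dKO count then lay further below that of control vehicle than with all peaks (56 and 58 of 81). The share over all genes was not computed for this setting.

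Other gene lists, chosen as active, silent or cell-type references, were read in the same way. Olfactory receptor genes, silent in liver, had a peak at 4 of 1106 genes in NCOR1 control vehicle and at 0 of 1106 in dKO (95% upper bound 0.333%), and ribosomal protein pseudogenes, which copy the exons without the promoter, at 12 (4.05%) and 2 (0.676%) of 296. Hepatocyte markers such as Alb, Apob and Hnf4a had a peak at 14 of 14 genes in control vehicle and at 5 in dKO; 3 of their 30 control peaks were overlapped in dKO, with a median log2 ratio of -1.72. Endothelial markers such as Stab2 and Pecam1 had a peak at 8 of 8 genes in both lists, and 12 of 28 peaks were overlapped, with a median log2 ratio of 1.43. Kupffer cell markers had a peak at 1 of 8 genes in each. The members' median ratio of -0.03 lay between those of the hepatocyte and endothelial lists. So did the medians of all pairs (-0.39) and of pairs near a start (-0.38), so this place is not particular to members. The hepatocyte value rests on 3 pairs. The part of cells other than hepatocytes in the members' signal was not tested, and in whole liver fewer cells of a type and less signal per cell cannot be told apart.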

How the data were processed

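ChIP-seq of liver was read from 7 peak lists pooled by group. Trim Galore 0.6.4, BWA 0.7.17, HOMER 4.11, bedtools 2.29.2 and mm10 are named in the submitters' processing notes; how reads with several matches were treated is not given in the sources used here. Peaks of 200 bp were called with HOMER findPeaks at 4-fold over input and 4-fold over the local 10 kb, with a p-value of at most 0.0001 and tag thresholds of 15 for GR and 11, 16 and 12 for NCOR1 in control vehicle, control dexamethasone and dKO, per the file headers. The normalized tag count is a signal in tags per 10 M tags, deposited by the authors; input tags per peak are a further deposited signal, scaled to the ChIP library in the vehicle NCOR1 lists. Fold over input and over the local region are ratios deposited by the authors.

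Gene bodies and starts came from RefSeq tables (GRCm38.p6, the assembly of mm10). Peaks overlapped at 1 bp or more. Shares carry exact Clopper-Pearson 95% intervals (scipy 1.17.1), medians exact order-statistic intervals. No test between lists was possible with pooled groups. The counting of peaks was tested on simulated data. Named genes are the 10 strongest members of the dKO NCOR1 list, the 5 strongest of both control NCOR1 lists and of GR control dexamethasone, and up to 10 members with peaks in all or no list; other members named, by pattern, for the largest ratios or for a shifted GR peak, were chosen after their values were seen, as were the pseudogene set and the TCGCGA search. The members and lists were chosen with earlier results of these data known. Some members are counted but not reported by name here.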

Additional observations from a re-analysis of the deposited data

How the results depend on the processing

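No paired analysis was possible because libraries of a group were pooled before peaks were called, so that the files carry no replicate values; for the same reason no replicate could be left out. Of the recomputed values, 84 stayed within the interval of the reported value and 26 moved beyond it; the signs of the log2 ratios did not change, and the share of control vehicle peaks found in dKO stayed between 55.2% and 66.7%. Counting peaks in the gene body alone, the share of members with a peak was 44.4% in NCOR1 control vehicle, 40.7% in NCOR1 control dexamethasone, 39.5% in NCOR1 dKO vehicle, 21.0% in GR control vehicle and 25.9% in GR control dexamethasone, against 39.2%, 38.5%, 25.4%, 36.9% and 41.0% of all genes, so that both control NCOR1 shares lay near those of all genes. With the body and 5000 bp it was 59.3% in GR control dexamethasone and 37.0% in GR dKO dexamethasone, against 54.1% and 44.8%. With peaks of at least 8-fold over input it was 38.3%, 34.6% and 22.2% in NCOR1 control vehicle, control dexamethasone and dKO, and for GR 18.5% (vehicle) and 17.3% (dexamethasone) in control liver and 12.3% under each treatment in dKO liver, against 36.8%, 33.1%, 19.5%, 32.5%, 36.2%, 28.2% and 28.5% of all genes. The median percentile of RP peaks within their list was then 37.7, 48.2 and 64.0 in the same NCOR1 lists, the median tag count of GR control dexamethasone 11.6, and the members' share of NCOR1 dKO vehicle peaks 0.191%. With lists of equal length the share of members was 23.5% in NCOR1 control vehicle, 42.0% in NCOR1 control dexamethasone, 17.3% in GR control vehicle, 8.64% in GR control dexamethasone and 14.8% in GR dKO dexamethasone, against 24.4%, 24.9%, 28.5%, 25% and 26.6%. Without peaks near another gene, an alternative added after the data were seen, it was 60.5% in NCOR1 control vehicle and 51.9% in NCOR1 dKO. The share over all genes was not computed for that alternative. Fewer peaks or a smaller window enter each of these settings except the wider window. A gene without a peak fell short of the calling limits at this depth and may still carry signal.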

Other observations

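Other promoter-rich gene lists were read with the same window, as values with no test. Mitochondrial ribosomal protein genes had an NCOR1-antibody peak at 58 of 78 genes (74.4%) in control vehicle, 64 (82.1%) in control dexamethasone and 45 (57.7%) in dKO. Complex I subunits of the respiratory chain had one at 29 of 40 (72.5%), 28 (70.0%) and 25 (62.5%), and proteasome subunits at 29 of 40 (72.5%), 28 (70.0%) and 21 (52.5%). Translation factors, such as Eef2 and the Eif3 subunits, had one at 27 of 35 (77.1%), 24 (68.6%) and 27 (77.1%), and ribosome biogenesis genes at 12 of 20, 15 and 11. At overlapping vehicle pairs the median log2 ratio of dKO over control was -0.53 for mitochondrial ribosomal proteins (35 pairs), -0.35 for complex I (22), -0.25 for the proteasome (15), -0.58 for translation factors (19) and -0.74 for ribosome biogenesis (10).

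The 7 ribosome genes that the symbol rule leaves out, among them Rplp0, Rplp1, Rplp2, Rpsa and Rack1, had an NCOR1-antibody peak at 2 genes in control vehicle, 3 in control dexamethasone and 2 in dKO. None of their 3 control vehicle peaks was overlapped by a dKO peak.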
